A study of Mus musculus with 39 samples.

Results

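Breast samples of mice that carried 3 genetic elements, written SB, Tg and Bcat in the labels, were compared with lesions of mice labelled only as Bcat +/-. The comparison took 8 of the 39 arrays of the series. The triple Bcat group held the 3 arrays whose genotype label reads Triple (SB/Tg/Bcat), and the Bcat-only group pooled the 5 arrays of the remaining Bcat +/- labels. Membership followed the labels alone, and no array of either group carried K5Cre.

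Each array measured the total RNA of 1 mouse tissue sample on an Affymetrix mouse expression array, and the deposited values are on a log2 scale after RMA, the authors' normalisation between arrays. All values and differences below are on that scale, where a difference of 1 is a 2-fold change. Sleeping Beauty, named in the title of the series, is a transposon that inserts into the genome when its transposase is present. The labels do not spell out SB, Tg or Bcat, and they give no strain, age or sex.

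The triple Bcat samples are labelled as breast tissue, and their label does not say that they are tumours. Triple Bcat 1 came from animal Tbc-2173, and triple Bcat 2 and 3 both came from animal Tbc-266. Of the Bcat-only arrays, masses 1 and 2 were breast samples whose titles differ and were read as 2 animals. Ventral tumours 1, 2 and 3 were all from a single animal, with the ventral body side as their tissue. The comparison therefore set 2 animals against 3. Its p-values rest on a spread estimated over all 39 arrays of the series, not over these 8 alone. Because the titles of all Bcat-only samples begin with C57 and those of the triple samples with Tbc, the 2 genotypes, the kind of lesion and any difference in breeding stock cannot be told apart.

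The other 31 arrays entered the statistical fit and serve as a background for levels. They were 19 quadruple breast arrays (SB/Tg/K5Cre/Bcat), 8 triple K5Cre breast arrays (SB/Tg/K5Cre) and 4 normal mammary glands, of which 1 came from a triple Bcat animal, 1 from a quadruple and 2 from triple K5Cre animals.

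Beta-catenin, the product of Ctnnb1, links cadherins to the cytoskeleton and also carries the canonical Wnt signal. When it is not degraded it enters the nucleus, binds TCF and LEF factors and switches on feedback genes such as Axin2, Nkd1 and Notum. The Hox genes encode transcription factors that lie in 4 clusters, Hoxa to Hoxd, and give cells their position along the body axis, and they are active in skin and mammary tissue of adults.

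Triple Bcat samples and Bcat-only lesions differed in 8 of 18194 genes by limma's test (adjusted p under 0.05 after Benjamini and Hochberg), which is 0.044% of all genes tested. Lower in triple Bcat were 5 genes (0.0275%): 3 genes of the Hoxb cluster (Hoxb5, Hoxb6 and Hoxb9), the FGF-binding protein gene Fgfbp3 and the aldo-keto reductase gene Akr1c19. Higher were 3 genes (0.0165%): Wdfy1, Bpifb9b and 1810046K07Rik. At an unadjusted p under 0.05 the count was 439 genes (2.41%). The median difference over all genes was -0.013 and the median standard error 0.25. The count of called genes was 2 without triple Bcat 2, 1 without triple Bcat 3, 2 without masses 1 and 5 without ventral tumour 1. With the mean of each animal's arrays it was 1, and the gene that kept its call was Fgfbp3. The count went from 0 in a fit of the 8 arrays alone to 2015 with array weights. Leaving out 1 of the 8 arrays ended the call in 6 fits of 8 for Hoxb6 and Hoxb9, in 5 for Hoxb5, in 4 for 1810046K07Rik, in 3 for Fgfbp3 and Akr1c19, and in 1 for Wdfy1 (without triple Bcat 3) and Bpifb9b (without triple Bcat 2).

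**Figure D1:**
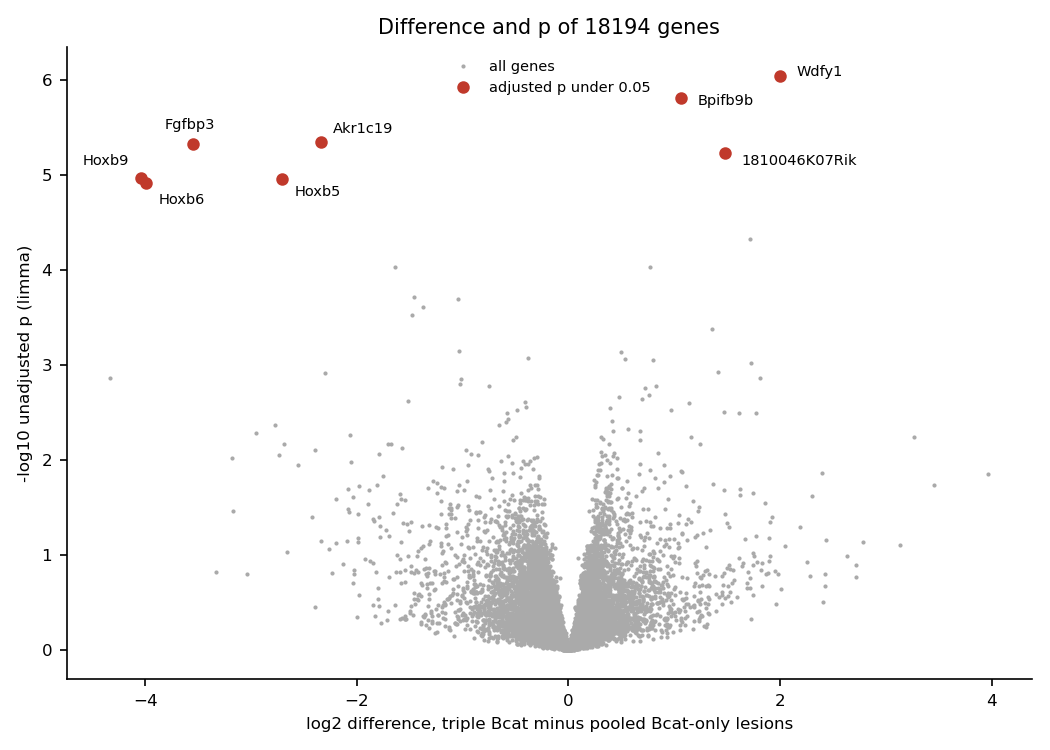
Log2 difference between triple Bcat and pooled Bcat-only lesions (x axis) against the -log10 of the unadjusted limma p (y axis) for 18194 genes, 1 point per gene. The 8 genes with an adjusted p under 0.05 are red and named: 5 lie to the left (lower in triple Bcat) and 3 to the right.

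The promoters of 3 of these genes are printed because they are the named genes of the comparison whose upstream sequence is in the RefSeq table used here. Of the 8 genes, 4 matched that table, and the sequence of 1810046K07Rik, which has more than 1 start, is not shown. Each run is the 250 bases before the gene's start, read 5′ to 3′ on the gene's strand (mouse assembly GRCm38.p6). Fgfbp3 lies on the minus strand (chr19:36919600-36919849), Akr1c19 on the plus strand (chr13:4233490-4233739) and Bpifb9b on the plus strand (chr2:154306994-154307243). Capitals mark TATAAA, the core of the TATA box, or its reverse complement TTTATA.
Fgfbp3: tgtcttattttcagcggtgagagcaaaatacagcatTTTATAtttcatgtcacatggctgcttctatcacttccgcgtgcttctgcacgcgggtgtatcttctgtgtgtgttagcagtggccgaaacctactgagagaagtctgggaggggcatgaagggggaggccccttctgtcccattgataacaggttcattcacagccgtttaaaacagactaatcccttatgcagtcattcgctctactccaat
Akr1c19: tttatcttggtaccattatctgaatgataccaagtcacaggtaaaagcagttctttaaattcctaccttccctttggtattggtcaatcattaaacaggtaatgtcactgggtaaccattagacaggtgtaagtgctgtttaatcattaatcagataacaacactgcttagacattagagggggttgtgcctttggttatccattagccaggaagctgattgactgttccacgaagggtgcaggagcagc
Bpifb9b: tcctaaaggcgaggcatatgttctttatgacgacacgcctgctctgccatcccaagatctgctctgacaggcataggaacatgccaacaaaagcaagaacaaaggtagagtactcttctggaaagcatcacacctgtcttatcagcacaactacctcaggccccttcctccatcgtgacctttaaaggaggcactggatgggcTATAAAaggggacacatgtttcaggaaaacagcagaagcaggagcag
The TATA box letters began 47 bases before the start in Bpifb9b and 214 bases before it in Fgfbp3, and they occur in 12.4% of 32851 mouse promoters of the same length. The core TCF/LEF motif CTTTGAT, or its reverse complement ATCAAAG, was in none of these windows and in 3.21% of all promoters. The search covered both strands, the motifs do not overlap each other, and a match or its absence is a description of these letters only.

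The level of Ctnnb1, the gene that the Bcat label points to, depended on the probe set, and this was seen only after its values had been examined. Its brightest probe set stood at 12.40, 13.16 and 13.14 in triple Bcat 1 to 3, at 12.71 and 12.88 in masses 1 and 2, and at 12.75, 12.69 and 12.88 in the ventral tumours. The groups overlapped, with a difference of 0.072 (95% interval -0.31 to 0.45), and the same probe set ran from 12.37 to 13.39 over the other 31 arrays. The dimmest of its 3 probe sets, called the third here, stood at 11.47 in triple Bcat 1, at 9.99 in triple Bcat 2 and almost the same in triple Bcat 3, at 12.13 and 11.76 in the masses, and at 11.29, 11.73 and 12.02 in the ventral tumours.

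On the third probe set all 8 arrays lay above the 8 triple K5Cre arrays, which carry no Bcat and ran from 7.38 to 9.30. The normal gland of the triple Bcat animal stood at 10.26, whereas the glands of the 2 triple K5Cre animals stood at 7.07 and 7.43 and that of the quadruple animal at 7.18. The 19 quadruple arrays spread from 7.33 over a median of 9.15 to 11.89. The second probe set had a similar order: 12.29, 11.84 and 11.73 in triple Bcat and 12.41 to 12.90 in the Bcat-only lesions. It stood at 11.94 in the gland of the triple Bcat animal, 10.03 to 11.62 in triple K5Cre, and 9.76 to 10.09 in the other 3 glands. The 19 quadruple arrays spread from 9.79 over a median of 11.26 to 12.93 and so covered the triple K5Cre range.

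Within the comparison, both of these probe sets were lower on average in triple Bcat, and neither passed the test. The fitted difference was -1.25 (SE 0.89, 95% interval -3.06 to 0.56) for the third, where triple Bcat 1 lay within the Bcat-only range, and -0.71 (SE 0.57, -1.86 to 0.44) for the second, where the groups did not overlap. When each of 34958 probe sets was tested on its own, 11 were called (0.0315%), from the 8 genes already named and from Pex19, a peroxisome assembly gene. The called Pex19 probe set differed by 1.30 (SE 0.25, adjusted p = 0.0339), and the brightest Pex19 probe set by 0.09.

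**Figure D2:**
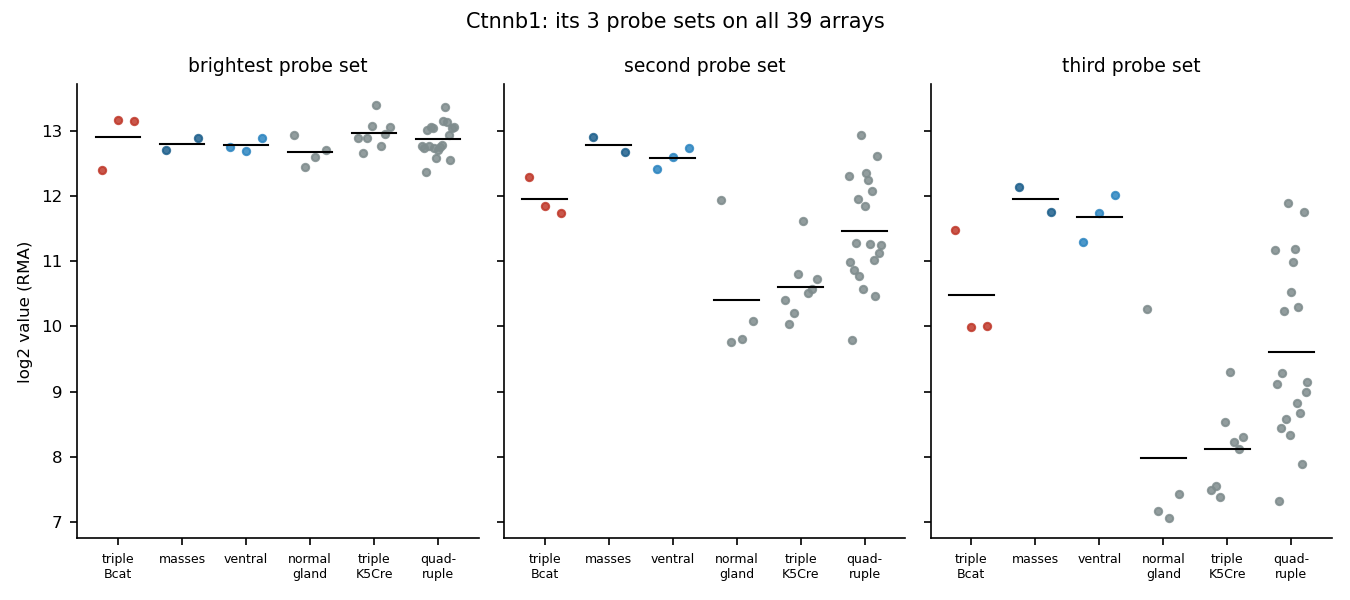
Log2 value (y axis) of the 3 Ctnnb1 probe sets on all 39 arrays, 1 point per array, by group (x axis), with a bar at the group mean. The brightest probe set (left) lies between 12.37 and 13.39 in every array, while on the third (right) all triple Bcat, masses and ventral arrays (9.99 to 12.13) lie above all triple K5Cre arrays (7.38 to 9.30).

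Hoxb9 stood at 4.89, 4.26 and 4.09 in triple Bcat 1 to 3, at 9.61 and 7.31 in masses 1 and 2, and at 8.74, 8.18 and 8.71 in ventral tumours 1 to 3. No triple Bcat array came near the Bcat-only range, and the gene was lower by a fitted -4.05 (SE 0.79, adjusted p = 0.0279). Normal gland ran from 4.64 to 4.88 and triple K5Cre from 4.05 over a median of 4.29 to 6.14, so that triple Bcat lay near both. The 19 quadruple arrays ran from 3.91 over a median of 4.52 to 8.36, and 2 of them lay within the Bcat-only range. Quadruple 1, 10 and 12 stood between the normal gland and Bcat-only ranges, at 6.59, 5.74 and 6.33.

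Hoxb6 stood at 3.53, 4.13 and 3.93 in triple Bcat, at 8.59 and 6.89 in the masses, and at 7.98, 7.51 and 8.24 in the ventral tumours. The groups did not overlap, and the difference was -3.99 (SE 0.79, adjusted p = 0.0279). Normal gland ran from 3.76 to 4.75 and triple K5Cre from 3.11 to 3.98, and 2 of the 19 quadruple arrays reached the Bcat-only range, the highest at 7.62. Hoxb5 stood at 3.53, 4.54 and 4.31 in triple Bcat, at 8.20 and 5.62 in the masses, and at 7.19, 6.15 and 6.57 in the ventral tumours. Again no array of one group fell in the range of the other, and the difference was -2.71 (SE 0.53, adjusted p = 0.0279).

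The rest of the Hoxb cluster, viewed as a set only after its values were seen, was uneven. On mouse chromosome 11 the RefSeq table lists Hoxb1 to Hoxb9 and Hoxb13, and all of these but Hoxb8 were measured. Hoxb2 stood at 5.39, 8.05 and 8.17 in triple Bcat against 8.54 to 9.47 in the Bcat-only lesions, without overlap and without passing the test (difference -1.98, SE 0.80). Hoxb3 stood at 4.19 in triple Bcat 1 and at 7.72 and 7.83 in triple Bcat 2 and 3, and the last 2 were within the Bcat-only range, 7.57 to 8.73.

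Hoxb13, at the far end of the cluster, differed among the Bcat-only lesions themselves, at 6.26 and 4.45 in the masses and 3.68, 7.09 and 7.41 in the ventral tumours, against 3.37 to 4.91 in triple Bcat. Hoxb7 was flat at 3.15 to 3.41 on all 8 arrays, and Hoxb1 and Hoxb4 differed by -0.28 and -0.58. The 9 measured Hoxb genes had a median difference of -1.79, with 3 called and 4 whose groups did not overlap, against 0.0098 for the 24 Hoxa, Hoxc and Hoxd genes, of which 0 were called and 0 separated the groups. Over all genes, 4.11% separated the groups, 414 with triple Bcat lower (2.28%) and 333 with triple Bcat higher (1.83%).

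**Figure D3:**
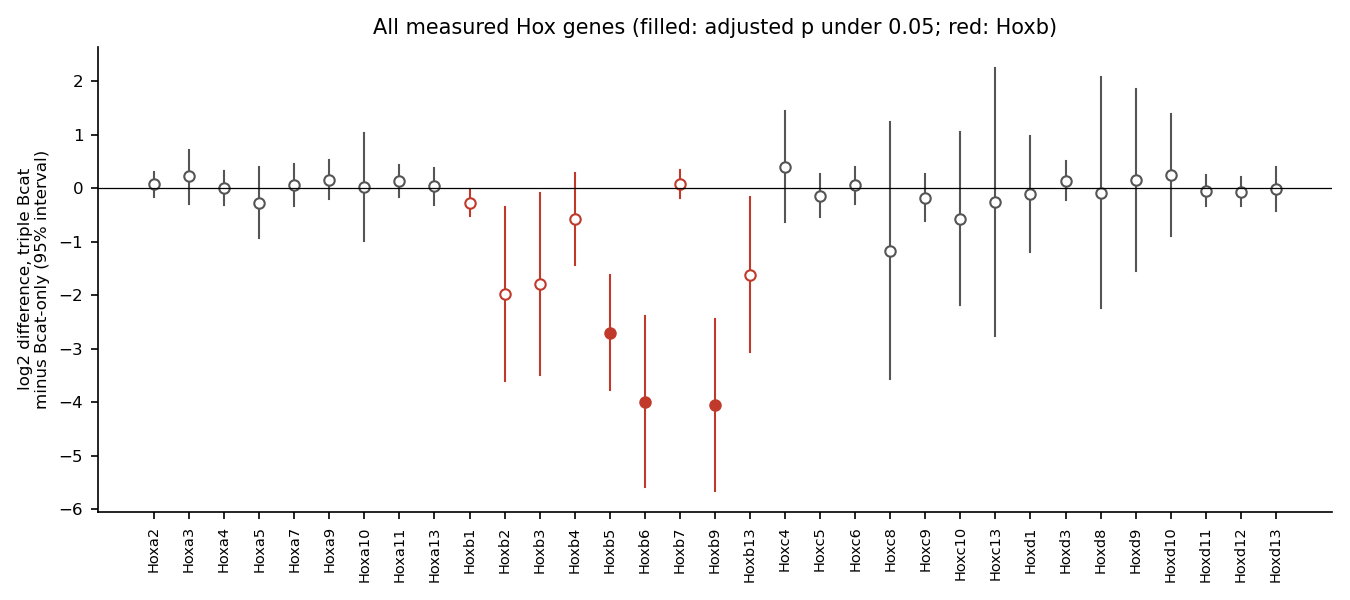
Log2 difference, triple Bcat minus Bcat-only, with its 95% interval for the 33 measured Hox genes, ordered by cluster along the x axis; Hoxb genes are red and filled points have an adjusted p under 0.05. Hoxb5, Hoxb6 and Hoxb9 lie between -4.05 and -2.71, and the Hoxa, Hoxc and Hoxd genes lie between -1.17 and 0.40.

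Fgfbp3 encodes a secreted carrier that binds fibroblast growth factors. It stood at 6.62, 5.86 and 5.01 in triple Bcat, at 10.75 and 8.64 in the masses, and at 9.62, 8.94 and 8.99 in the ventral tumours. The groups did not overlap, and it was lower in triple Bcat by -3.55 (SE 0.66, adjusted p = 0.0214). All 5 Bcat-only arrays also lay above each of the other 31 arrays, whose highest value was 8.10. Of 17 FGF ligands, receptors and carriers it was the only gene called. The related carrier Fgfbp1 stood at 11.72, 9.86 and 8.57 in triple Bcat against 10.58 to 11.45 in the Bcat-only lesions, and the list's median difference was 0.082.

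Akr1c19, an aldo-keto reductase gene, stood at 4.32, 3.17 and 3.03 in triple Bcat, at 7.99 and 5.13 in the masses, and at 4.88, 5.68 and 5.17 in the ventral tumours. Masses 1 was far above the rest, and the groups did not overlap (difference -2.34, SE 0.43, adjusted p = 0.0214). Without masses 1 the difference was -1.62 (adjusted p = 0.0669 by limma). The other 31 arrays ran from 2.55 to 3.94, below every Bcat-only array.

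Wdfy1, an endosomal WD-repeat protein gene, showed the reverse. It stood at 8.45, 8.74 and 8.85 in triple Bcat, at 6.62 and 6.53 in the masses, and at 6.70, 6.97 and 6.58 in the ventral tumours. The groups did not overlap, and it was higher in triple Bcat by 2.00 (SE 0.34, adjusted p = 0.0142). The other 31 arrays ran from 7.57 to 9.27, so that the 5 Bcat-only arrays were the lowest 5 of the series. Of its 4 other probe sets, 2 also separated the groups (fitted differences 2.17 and 1.91), and the other 2 did not (0.29 and -0.043).

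Bpifb9b belongs to the BPI fold family of secreted lipid-binding proteins. It stood at 5.03, 5.98 and 5.23 in triple Bcat and at 4.17 to 4.46 in the Bcat-only lesions, a difference of 1.07 (SE 0.19, adjusted p = 0.0142). All 3 triple Bcat arrays lay above the other 31, which reached at most 4.87. Its second probe set passed when tested on its own (1.64, SE 0.30, adjusted p = 0.0231), although triple Bcat 1, at 2.51, was within the Bcat-only range of 2.16 to 2.52. Bpifb5, listed 2 places away on chromosome 2, stood at 4.80, 7.08 and 6.39 against 4.08 to 5.01 and did not pass (difference 1.41, SE 0.40), and the 10 measured Bpif genes had a median difference of 0.074.

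The Riken gene 1810046K07Rik falls outside the rule for named genes and is given because it was among the 8. It stood at 3.56, 5.63 and 5.03 in triple Bcat against 2.99 to 3.26, and was higher by 1.48 (SE 0.28, adjusted p = 0.0214). The elevation was in both arrays of animal Tbc-266, and triple Bcat 1 lay inside the range of the other 31 arrays, 2.90 to 4.35. Without both Tbc-266 arrays the difference was 0.41 (SE 0.28, adjusted p = 0.624 by limma).

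**Figure D4:**
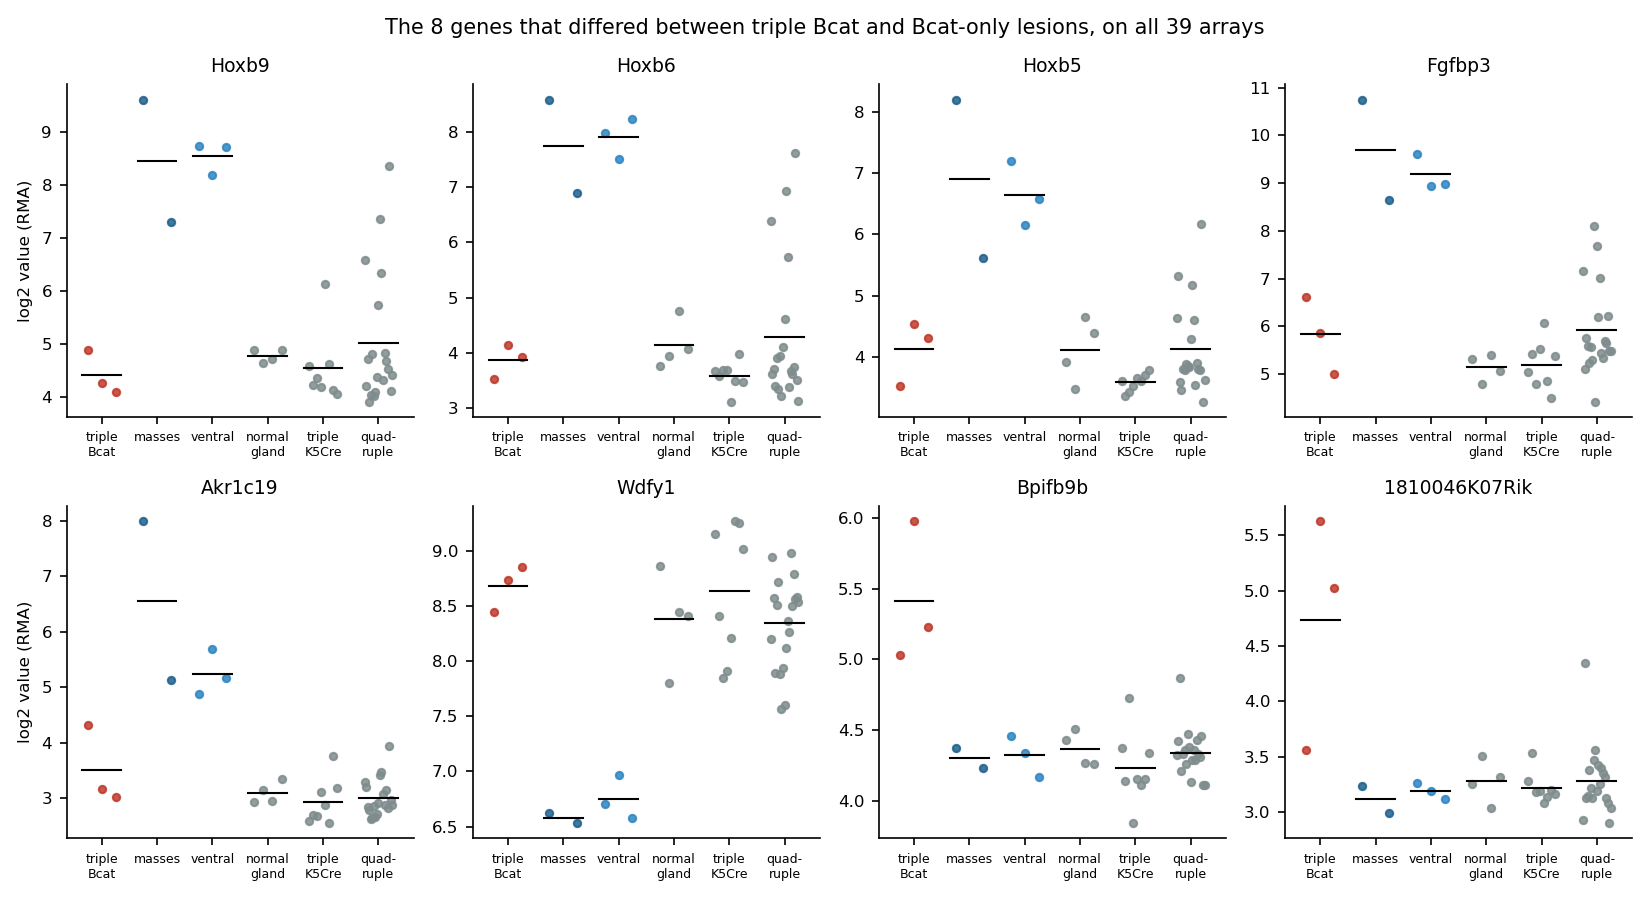
Log2 value (y axis of each panel, not from 0) of the 8 called genes on all 39 arrays by group (x axis), 1 point per array and a bar at the group mean; triple Bcat is red, Bcat-only lesions blue and other groups grey. In Fgfbp3, Akr1c19 and Wdfy1 the Bcat-only arrays lie outside all others, and in Bpifb9b the triple Bcat arrays do.

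The called genes thus differed in which group departed from the rest of the series. For Hoxb5, Hoxb6, Hoxb9 and 1810046K07Rik neither group lay wholly outside the other 31 arrays. Among the 747 genes whose groups did not overlap, the Bcat-only arrays lay outside the range of the other 31 in 9 genes and the triple Bcat arrays in 5 genes, and in 0 genes did both. Over all genes, the Bcat-only arrays lay outside that range in 16 and the triple Bcat arrays in 13. These counts were made after the values were seen. Besides the called ones, the 9 genes held the Wnt ligand gene Wnt9a, which stood at 6.82 to 7.14 in triple Bcat and 7.81 to 9.10 in the Bcat-only lesions, and the interferon-inducible Ifi202b, at 7.02 to 10.12 against 10.87 to 11.94. Neither passed the test. The DNA demethylase genes Tet1 and Tet2 were also in these sets, Tet1 at 4.66 to 5.09 in triple Bcat against 4.05 to 4.41 and Tet2 at 8.58 to 8.63 against 8.04 to 8.30, again without passing.

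Further genes named by rule had the smallest p-values without passing the test. Among the higher ones were Sycp2, a synaptonemal complex gene (0.77, SE 0.18, adjusted p = 0.153), and Lysmd3 (0.80, SE 0.22). The cytokine gene Il17a had a difference of 1.72 that came from 1 array, at 7.35 in triple Bcat 1 against 3.39 and 3.73 in triple Bcat 2 and 3 and 3.24 to 3.41 in the Bcat-only lesions. Fabp7, a fatty acid-binding protein gene, stood at 7.39, 5.15 and 4.81 against 3.82 to 4.26. Among the lower ones were Tmem254a (-1.64, SE 0.37, adjusted p = 0.153 by limma) and the basophil protease gene Mcpt8 (-1.46, SE 0.35). In the same position were Dhh, a Hedgehog ligand gene (-1.48, SE 0.37), and Tmem19 (-1.03, SE 0.28).

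The pooled group combined 2 kinds of lesion, so triple Bcat was also set against each. Against the masses 2 genes were called (0.011%), 0 higher and 2 lower, with 449 at an unadjusted p under 0.05 (2.47%). They were Khdc1a, at 2.18, 2.85 and 2.62 in triple Bcat against 5.09 and 4.51 in the masses (-2.28, SE 0.27, adjusted p = 1.27e-05), and Akr1c19 (-2.98, SE 0.47, adjusted p = 0.00299). In neither gene did the 2 groups overlap, and Akr1c19 stood at 7.99 in masses 1 and 5.13 in masses 2. With the mean of each animal's arrays 2 genes were called, of which only 1 was among these. The count was 11 without triple Bcat 1, 46 without masses 2 and 4 without ventral tumour 2.

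Against the ventral tumours 4 genes were called (0.022%), 0 higher and 4 lower, with 238 at an unadjusted p under 0.05 (1.31%). Reg1, a secreted lectin gene of the regenerating family, stood at 3.73, 3.82 and 4.08 against 6.94, 8.96 and 7.87 (-4.06, SE 0.59, adjusted p = 0.000992). Mucl1, a mucin-like gene, stood at 2.68 to 2.78 against 4.06 to 4.58 (-1.64, SE 0.25, adjusted p = 0.000992), and Mcpt8 at 3.74 to 4.88 against 5.93 to 6.95 (-2.12, SE 0.38, adjusted p = 0.0126). The last was Calcoco2, an autophagy receptor gene that was low on all 8 arrays (2.18 to 3.07). The count was 7 without triple Bcat 1. These 2 comparisons share the triple Bcat arrays, and the ventral tumours come from 1 animal.

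The masses and the ventral tumours differed from each other in 2 genes (0.011%), 1 in each direction (0.0055% each), with 157 at an unadjusted p under 0.05 (0.863%). These were 2 animals against 1, so kind of lesion and animal cannot be told apart. Khdc1a was higher in the masses by 1.88 (SE 0.30, adjusted p = 0.00477), and Reg1 was lower there by -3.41 (SE 0.62, adjusted p = 0.0335). The 3 Hoxb genes and Fgfbp3 had differences from the masses and from the ventral tumours that were alike in sign and size. For Hoxb9 they were -4.00 (SE 0.94) and -4.08 (SE 0.97), and for Fgfbp3 -3.79 (SE 0.79) and -3.28 (SE 0.81), and between masses and ventral tumours they were -0.084 (SE 1.02) and 0.51 (SE 0.85). For Wdfy1 they were 2.08 (SE 0.40) and 1.90 (SE 0.41). None of these passed in the separate comparisons. The count of called genes between masses and ventral tumours was 27 without masses 2, 4 without ventral tumour 2 and 1 without ventral tumour 3.

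The feedback targets of the Wnt pathway had mostly higher means in triple Bcat, with wide errors. Of 21 measured genes 17 had a higher mean, 0 were called and in 0 did the groups separate, and the list's median difference was 0.64. Axin2, the negative regulator used as a readout of the pathway, stood at 7.73, 9.07 and 8.95 in triple Bcat, at 6.52 and 8.86 in the masses, and at 7.65, 7.74 and 7.90 in the ventral tumours (0.78, SE 0.98). Masses 2 was as high as the Tbc-266 arrays, and triple Bcat 1 as low as the ventral tumours.

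In 18 of the 21 genes both Tbc-266 arrays stood above triple Bcat 1, and in 2 both stood below it; over all genes the former share was 43.1%. This count was made after the values were seen. Sp5, a transcription factor gene, stood at 5.01 in triple Bcat 1 and 7.80 and 7.92 in triple Bcat 2 and 3, against 4.15 to 5.68 (1.89, SE 1.00). Notum, which encodes a Wnt-inactivating enzyme, stood at 5.56, 7.97 and 8.30 against 4.31 to 6.22 (1.72, SE 1.38). Lgr5, the receptor gene of R-spondins, stood at 4.36, 10.10 and 9.79 against 5.76 to 7.70. The list mean was 6.89 in triple Bcat 1, 8.23 in both others, and 6.54 to 7.73 in the Bcat-only arrays, and the median difference of the list was -0.012 without the 2 Tbc-266 arrays.

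The inhibitor gene Dkk1 was the main exception of the list, at 4.98 to 6.40 in triple Bcat and at 3.80 and 9.54 in the masses and 7.45 to 8.11 in the ventral tumours (-1.36, SE 1.63). Lef1, which encodes a nuclear partner of beta-catenin, stood at 5.53, 5.64 and 6.30 against 4.81 to 5.84 (0.49, SE 0.78). None of 19 Wnt ligand genes (median 0.12), 26 receptor and modulator genes (median -0.098) and 20 genes of the beta-catenin and adherens junction list (median -0.069) were called. The ranges were -1.54 for Wnt2 to 1.00 for Wnt6 among the ligands and -1.46 for the secreted inhibitor gene Sfrp1 to 1.96 for the inhibitor gene Wif1 among the modulators.

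Of 10 Hedgehog genes 0 were called, 4 separated the groups with triple Bcat higher and 1 with triple Bcat lower (median difference 0.26), where over all genes 1.83% separated the groups as higher and 2.28% as lower. The ligand gene Shh stood at 7.02, 8.89 and 9.26 in triple Bcat, at 3.88 and 6.78 in the masses, and at 5.93, 4.92 and 6.08 in the ventral tumours (2.78, SE 1.503). The target Gli1 stood at 6.32, 6.38 and 6.92 against 5.44 to 6.19 (0.70, SE 0.65). The receptor gene Ptch1, also a target, stood at 8.84, 10.58 and 10.83 against 8.13 to 9.12, with triple Bcat 1 inside that range. The ligand gene Dhh went the other way, at 4.46 to 4.69 against 5.16 to 7.07. Shh ran from 3.38 to 9.58 in the quadruple arrays and so covered the triple Bcat values.

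Of the 50 gene lists examined, 48 held no called gene. The 4 called members, of 729 different genes measured, were the 3 Hoxb genes and Fgfbp3, beside 8 of all 18194 genes (0.044%). The lists were chosen with earlier results of these data known. All 21 mitotic genes had a higher mean in triple Bcat (median 0.51), but none was called and the list means overlapped, at 7.45, 8.29 and 8.01 against 6.35 to 8.04. Mki67, a marker of cycling cells, stood at 9.18, 10.56 and 10.13 against 8.50 to 9.73 (0.71, SE 0.48). Of 20 replication and repair genes 17 had a higher mean (median 0.26).

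Among 24 neutrophil chemokines and inflammatory cytokines 6 separated the groups, all with triple Bcat higher (1.83% of all genes did), and 0 were called (median 0.27). Csf3, the granulocyte growth factor gene, stood at 10.08, 7.85 and 8.08 against 6.38 to 7.32 (1.93, SE 0.90). Cxcl3, a neutrophil attractant, stood at 11.14, 10.87 and 10.45 against 7.12 to 9.74 (2.72, SE 1.93), and the cytokine gene Il1b at 11.71, 10.09 and 10.40 against 8.81 to 9.69 (1.46, SE 1.13). The others were Cxcl2, Ccl4 and Osm. Of 19 neutrophil markers, 2 separated the groups, both with triple Bcat higher, and 0 were called. They were Il1b, already given, and G0s2, a lipolysis inhibitor gene, at 8.61, 8.45 and 8.60 against 5.74 to 7.01. The list mean of these markers overlapped, at 10.58, 9.44 and 9.50 against 9.26 to 10.03, and in a whole tissue sample fewer cells of a type and less RNA per cell cannot be told apart.

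**Figure D5:**
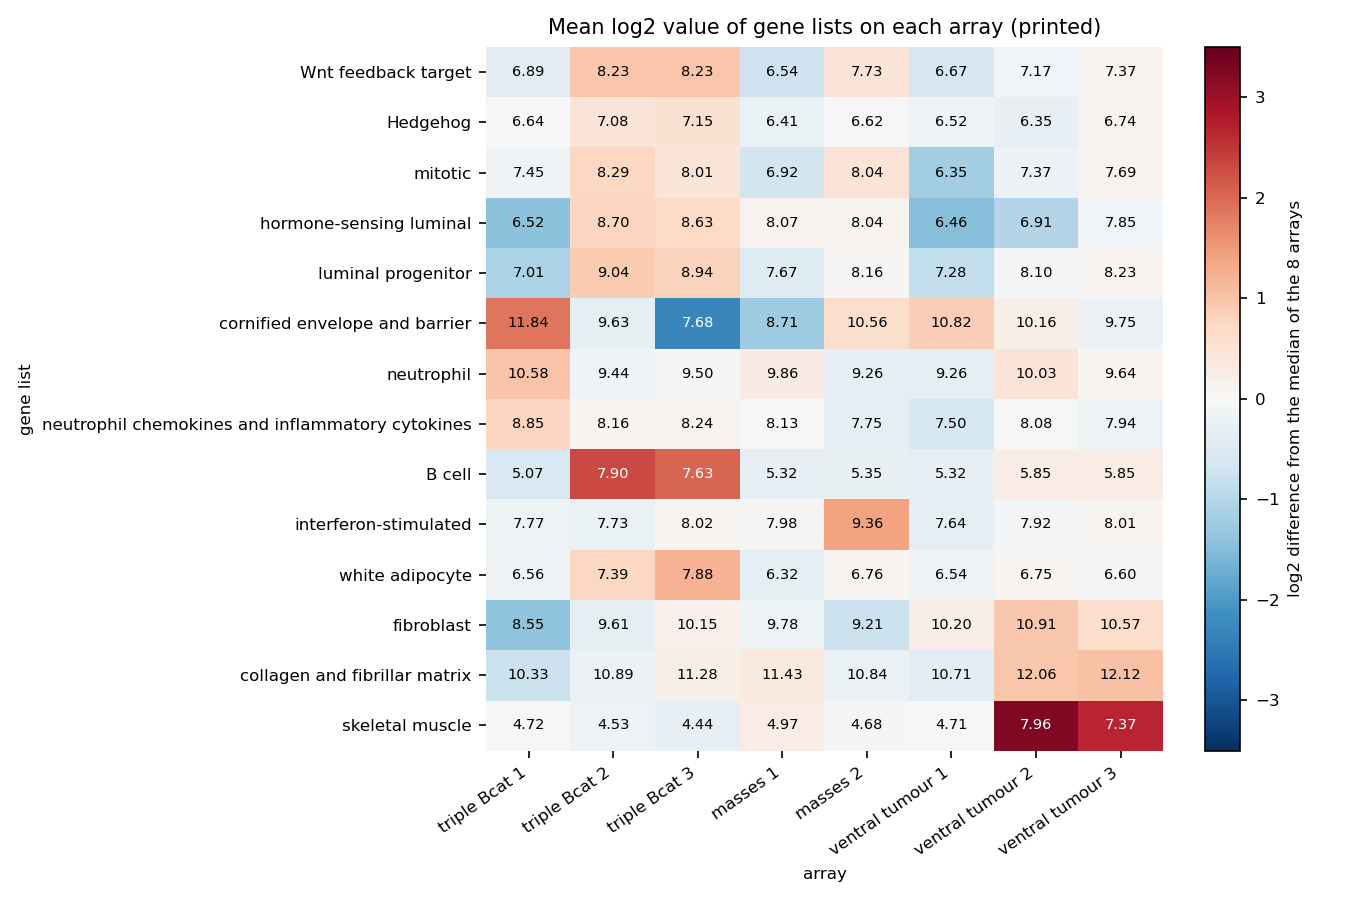
Mean log2 value (printed in each cell) of the measured genes of 14 lists (y axis) on the 8 arrays (x axis); colour gives the difference from the median of the 8 arrays. Triple Bcat 2 and 3 are high in B cell genes (7.90 and 7.63) and triple Bcat 1 is not (5.07), and skeletal muscle genes are high in ventral tumours 2 and 3 only (7.96 and 7.37).

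The arrays of triple Bcat were not alike. Triple Bcat 2 and 3, from the same animal, correlated at 0.989 over all genes, whereas triple Bcat 1 correlated with them at 0.943 and 0.924 and with ventral tumour 1 at 0.969. Genes are not independent replicates, and these correlations only describe the arrays. Triple Bcat 1 had the highest mean of 24 cornified envelope genes (11.84, against 9.63 and 7.68 in triple Bcat 2 and 3) and the lowest mean of 9 luminal progenitor genes (7.01, against 9.04 and 8.94). Its mean of 9 hormone-sensing luminal genes was 6.52, against 8.70 and 8.63, and its fat marker Adipoq stood at 2.56, against 8.27 and 9.25.

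B cell genes were high in the Tbc-266 arrays. Their list mean was 5.07 in triple Bcat 1, 7.90 and 7.63 in triple Bcat 2 and 3, and 5.32 to 5.85 in the Bcat-only lesions, with 11 of 12 genes higher on average (median 0.99) and 0 called. Ms4a1, which encodes CD20, stood at 4.47, 9.47 and 8.56 against 3.23 to 4.18 (3.46, SE 1.40). The part of these cell markers in the differences above was not tested. Without both Tbc-266 arrays the count of called genes was 112 (90 higher, 22 lower), of which 1 was among the 8.

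All 20 skeletal muscle genes were lower on average in triple Bcat (median -1.13, 0 called). The list mean was 7.96 and 7.37 in ventral tumours 2 and 3, and 4.44 to 4.97 on the other 6 arrays, including ventral tumour 1 at 4.71. In the 4 normal glands it was 9.70 to 11.30. Without ventral tumours 2 and 3, an alternative chosen after seeing these values, the list median was -0.13 and 6 genes were called in the pooled comparison, 5 of them among the 8.

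The values of the epithelial markers overlapped between the groups. The basal keratin gene Krt5 stood at 11.58 to 12.28 in triple Bcat and 11.91 to 12.75 in the Bcat-only lesions (-0.47, SE 1.01), and Krt14 at 12.32 to 13.97 against 13.35 to 13.85 (-0.41, SE 1.32). The luminal keratin genes were lowest in triple Bcat 1 (Krt8 10.41, Krt18 9.75) and ventral tumour 1 (10.44 and 10.20), and the other 6 arrays ran from 12.02 to 12.92 for Krt8 and from 10.81 to 12.36 for Krt18. The epithelial adhesion gene Epcam stood at 10.08 to 11.98 against 9.87 to 11.81. The 16 fibroblast genes and the 19 collagen and matrix genes both had a median difference of -0.54, with 0 called. Fn1, the fibronectin gene, and Gsn, the gelsolin gene, were the members of those lists whose groups did not overlap. Each was 1 gene of its list, with triple Bcat lower, where 2.28% of all genes separated the groups in that direction.

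Of 18 T cell and cytotoxic genes, 4 separated the groups with triple Bcat lower (2.28% over all genes) and 1 with triple Bcat higher (1.83%), and 0 were called. Nkg7, a granule gene of cytotoxic cells, stood at 5.45, 5.17 and 5.65 against 5.90 to 7.38 (-1.37, SE 0.91). The interferon-stimulated genes had a list mean of 7.73 to 8.02 in triple Bcat and 7.64 to 9.36 in the Bcat-only lesions, where masses 2 was the high array, and 17 of the 18 had a lower mean in triple Bcat (median -0.41). Of 18 white adipocyte genes, 4 separated the groups with triple Bcat higher (median 0.53), again beside 1.83% of all genes, among them Cidec, a lipid droplet gene (1.83). Their list mean was 6.56 in triple Bcat 1 and 7.39 and 7.88 in triple Bcat 2 and 3, against 6.32 to 6.76 in the Bcat-only lesions and 11.43 to 12.02 in normal gland.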

How the data were processed

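Total RNA (100 ng per sample, Affymetrix 3' IVT Express protocol) was measured on 39 arrays, per the labels' protocols. The authors deposited log2 values of 45101 probe sets, made with RMA per the submitters' processing notes, with no version given in the sources used here. RMA equalises the distribution of the arrays, whose medians lay between 5.10 and 5.27. Detection calls and probe intensities were not used here, so a low value is not separated from background. The number of arrays limits the precision.

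Gene names came from GEO's platform annotation, updated through a RefSeq table of mouse assembly GRCm38.p6. They gave 1 gene for 34958 probe sets, several for 932 and none for 9211, and 204 with 1 gene were not matched in RefSeq and keep the older symbol. For each of 18194 genes the probe set with the highest mean was used, and 100 genes had only cross-hybridising ones. No pair of arrays held identical values.

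A limma fit (version 3.58.1, R 4.3.3) over all 39 arrays gave each group a mean, with masses and ventral tumours sharing 1 mean in the pooled comparison. Animals, read from the sample titles, were a random block (duplicateCorrelation, consensus correlation 0.299 in the pooled fit and 0.329 with 6 groups), and eBayes used an intensity trend. Because of the block, fitted differences can depart from those of the plain means. A gene was called when its p, adjusted after Benjamini and Hochberg, was under 0.05 in 1 of 4 comparisons, and intervals are limma's 95% intervals. Alternatives were a fit of the 8 arrays only, no block, animal means, dropping the third of genes that was dimmest, cyclic loess, array weights, averaged probe sets, no trend, equal weight of the 2 lesion kinds, and leaving out each array or both arrays of Tbc-266. Leaving out ventral tumours 2 and 3, and testing each probe set on its own, were added after seeing the data.

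The members and the 50 gene lists (856 entries, 793 different genes, 729 measured) were chosen with earlier results of these data known. Named genes were, in each direction, the called genes by size and, where fewer than 12 were called, those of smallest p. For each list described, called members or the 2 of smallest p were taken, and Ctnnb1, Krt5, Krt14, Krt8, Krt18, Epcam, Axin2, Lef1, Mki67, Adipoq and Xist were always included. Other genes were named after their values were seen. Xist lay between 11.43 and 12.49 on the 8 arrays.

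On simulated data for the 18194 genes of the pooled comparison, 44 of 100 genes changed by 1 log2 unit and 83 of 100 changed by 2 were called, with 9 false calls. The simulated noise was normal with the same spread in every group, as the test assumes, so these shares need not hold for the real arrays. Python 3.11.15 with numpy 2.4.6, pandas 2.3.3, scipy 1.17.1 and matplotlib 3.10.9 made the tables and figures.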

Additional observations from a re-analysis of the deposited data

Results flagged for a closer look

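The 5 Bcat-only arrays were checked for single arrays far from the rest in 87 values, and 6 lay beyond Dixon's 95% limit (0.71 of the range for 5 arrays), which chance passes in about 1 in 20 groups. Akr1c19 stood at 7.99 in masses 1, above the other 4 arrays, and Fabp7 at 3.82 in masses 1, below them. Krt8 stood at 10.44 in ventral tumour 1, below the others. The mean of the interferon-stimulated list was 9.36 in masses 2, above the others, and that of the FGF list was 5.93 there, below them. The mean of the Notch list was 7.83 in ventral tumour 3, above the others.

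In 2 genes the effect differed between both kinds of Bcat-only lesion, by limma's test of masses against ventral tumours. The masses came from 2 animals and the ventral tumours from 1, so kind of lesion and animal cannot be told apart. Khdc1a was higher in the masses by 1.88 (5.09 and 4.51 against 2.46 to 3.19), and Reg1 was lower there by -3.41 (5.55 and 3.48 against 6.94 to 8.96).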

How the results depend on the processing

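The 8 called genes kept their direction under all 18 or 19 alternatives run for each, from 8 passes for Hoxb6 and Hoxb9 to 15 for Wdfy1. The ranges were -4.46 to -3.61 for Hoxb9, -4.32 to -3.72 for Hoxb6, -3.24 to -2.09 for Hoxb5, -4.01 to -2.81 for Fgfbp3, -2.81 to -1.57 for Akr1c19, 1.27 to 2.13 for Wdfy1, 0.72 to 1.63 for Bpifb9b and 0.41 to 2.39 for 1810046K07Rik. The lowest values of the last 2 came without both Tbc-266 arrays. For triple Bcat against the pooled lesions, the masses, the ventral tumours, and masses against ventral tumours, in that order, no block gave 14, 10, 11 and 4, the 8 arrays alone 0 in each (508, 335, 211 and 91 at an unadjusted p under 0.05), and array weights 2015, 346, 1726 and 19. Dropping the third of genes that was dimmest gave 2, 0, 0 and 0 (195, 220, 88 and 52 unadjusted). It removed Hoxb5, Hoxb6, Akr1c19, Bpifb9b and 1810046K07Rik as dim genes, so these were not retested. In the pooled comparison Wdfy1 and Fgfbp3 kept the call, and Hoxb9 had an adjusted p of 0.0502 by limma. Animal means gave 1 in the pooled comparison, Fgfbp3 (adjusted p = 0.00521 by limma). The other called genes then had an adjusted p from 0.0816 for Bpifb9b to 0.301 for Hoxb9, Hoxb6 and 1810046K07Rik. Animal means leave 1 value for the ventral tumours, so no count is given for the comparisons with them alone. Cyclic loess gave 8 against the masses. Without both Tbc-266 arrays the counts against pooled lesions, masses and ventral tumours were 112, 59 and 32, with the lone array assumed to vary like the other groups. Without ventral tumours 2 and 3 the count between both lesion kinds was 5. Leaving out 1 array at a time gave 1 to 11, 2 to 46, 4 to 7 and 1 to 27. In the fit without ventral tumours 2 and 3, ventral tumour 1 was the only ventral array left. Neither Khdc1a nor Reg1 then kept its call between both lesion kinds, so the higher count came from other genes. Most of the genes called between triple Bcat and the ventral tumours also lost their call in that fit. The causes were not tested.

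Of 684 values of named genes 568 kept direction and side of the threshold, 35 became called, 55 lost the call and 26 changed sign, all in genes that had not passed. Without both Tbc-266 arrays the differences were -0.08 for Mmp20, -0.38 for Ctnnb1, 0.35 for Krt14, -0.0003 for Axin2, -2.47 for Adipoq and -0.45 for Xist. Ctnnb1 stood at -0.013 with animal means and -0.63 with the mean of its probe sets. Krt8, Krt18 and Epcam stood at 0.032, 0.014 and 0.089 with no block and at 0.68, 0.62 and 0.78 with array weights, and Krt8 and Krt18 at 0.024 and 0.064 without ventral tumours 2 and 3. Leaving out 1 array gave -0.014 to 0.36 for Ctnnb1, -0.56 to 0.69 for Krt8, -0.50 to 0.75 for Krt18, -0.37 to 0.59 for Epcam and -0.00095 to 0.52 for Xist. Of 950 list medians, 47 moved by more than the spread between arrays. No paired analysis was possible because the labels give these groups no shared replicate numbers or animals.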
